A study of Mus musculus with 8 samples.

Results

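Expression was compared between 2 pairs of batches of cultured mouse oligodendrocyte progenitors, batches 1 and 3 on one side and batches 4 and 6 on the other. Each batch holds 1 control and 1 knockout library, so all 8 of the 8 libraries and all 4 batches take part, with 4 libraries and 2 batches on each side. The pairs were formed from measured expression in these same libraries. The difference between them is therefore described without a test, and only the effect of the knockout inside each pair, which did not form the pairs, was tested. Of 24155 genes in the table, 18102 had enough counts to be fitted, and 17429 of those are not on chromosome X or Y and are described here.

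All cultures carried the floxed genotype Ehmt1fl/fl;Ehmt2fl/fl and were immunopanned from pups of both sexes at postnatal day 7. They were kept in SATO medium with 10 ng/mL PDGF-AA and 20 ng/mL bFGF, the growth factors that keep progenitors dividing. Control cultures received the adenovirus Ad-RFP, and cKO (conditional knockout) cultures received Ad-RFP-iCre, which adds Cre recombinase. Infection lasted 6 hours at a multiplicity of 10, and cells were taken 72 hours post infection. Ehmt1 and Ehmt2 encode partner enzymes that methylate histone H3 on lysine K9. The labels do not say which promoter drives Cre, whether the animals of a batch were pooled, or what a batch stands for (a litter, a dissection, a culture or a library preparation), and batch 3 is labelled Batch-3-2. Culture, dissection and sequencing can thus not be told apart as the level at which batches differ.

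Progenitors divide under PDGF and FGF signalling, whose transcriptional readouts include D-type cyclins, Sprouty and Spred inhibitors and Egr factors. A progenitor that stops dividing passes through a premyelinating stage, marked by the orphan receptor Gpr17 and by Bcas1, before it makes the compact myelin proteins such as Mbp, Mobp and Mog. BMP signalling induces the Id genes, inhibitors of basic helix-loop-helix factors, and in progenitor cultures it is known to hold back myelin genes and to favour astrocyte genes.

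Libraries held 43542742 to 65374488 counts, and levels are given as CPM, each gene's count scaled to a library of fixed size with TMM factors. In a principal component analysis the leading axis took 47.4% of the variance, with batches 1 and 3 between -46.6 and -39.0 and batches 4 and 6 between 34.5 and 48.4. The second axis took 19.8% and set batch 1 (30.1 and 45.8) apart from batch 3 (-44.1 and -27.7). Summed over genes, the batch pair accounted for 47% of the sum of squares of log2 CPM, the batch inside a pair for 29.5%, the virus for 13.7% and the remainder for 9.82%. Counting genes whose batch means differed by at least 2-fold gave 1217 genes between batches 1 and 3 and 713 between batches 4 and 6, against 2180 to 2318 for the 4 pairings across. By this count batches of one pair were nearer each other than to any batch of the other pair, but not alike. The pairs were formed from these same libraries, so the axis, the shares and the counts describe that choice and do not support it. Mitochondrial genes took 2.42% to 3.63% of counts and the ribosomal RNA gene CT010467.1 took 6.61% to 10.1%, and both ranges overlapped between the pairs. Ehmt1 stood at 88.8 to 100.2 CPM in the 4 control libraries and 36.1 to 45.7 CPM in the 4 cKO libraries, and Ehmt2 at 154 to 196 CPM against 51.7 to 64.5 CPM, so the targeted genes were lower in every cKO library of both pairs.

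Differences between the pairs are log2 values, batches 4 and 6 minus batches 1 and 3, fitted with the virus as a covariate. A gene is called non-overlapping when all 4 libraries of one pair lie above all 4 of the other. By that count 2952 genes (16.9%) were higher in batches 4 and 6 and 3005 (17.2%) in batches 1 and 3. With a difference of at least 2-fold required as well, 573 genes (3.29%) were higher in batches 4 and 6 and 820 (4.7%) in batches 1 and 3. The threshold fell between Mxi1, at 0.9999 just outside, and Cep135, at -1.0005 just inside. Without batch 1 the 573 became 1122, but fewer libraries then have to lie apart, so the rule is easier to pass. The median difference over all 17429 genes was 0.01. As every one of these values comes from the contrast that formed the pairs, the percentages serve as background for the gene groups and support nothing by themselves.

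Genes of the premyelinating stage were among those with the largest differences towards batches 4 and 6. The receptor Gpr17 stood at 102 and 160.1 CPM in batch 1, 488 and 524 in batch 3, 5377 and 4286 in batch 4 and 3905 and 2879 in batch 6, where the first value of each batch is the control library and the second the cKO library. The log2 difference was 3.68, or 12.8-fold, and the lowest library of batches 4 and 6 was above the highest of batches 1 and 3. Bcas1, a cytoskeleton-associated protein of newly formed oligodendrocytes, stood at 223 and 244 CPM in batch 1, 322 and 317 in batch 3, 2655 and 2718 in batch 4 and 1424 and 1245 in batch 6, a difference of 2.86. Enpp6 (mm10 chr8:46986887-47096762), a choline phosphodiesterase of newly forming oligodendrocytes, stood at 5.12 and 7.79 CPM in batch 1, 0.145 and 0.558 in batch 3, 272 and 375 in batch 4 and 126 and 111 in batch 6, a difference of 6.03. Enpp6 was thus highest in batch 4 and at under 1 CPM in batch 3.

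Bmp4 (mm10 chr14:46383520-46390669, minus strand) had the largest difference of the named protein-coding genes. This BMP ligand stood at 0.5097 and 0.264 CPM in batch 1, 0.0723 and 0.0893 in batch 3, 99.3 and 95.5 in batch 4 and 51.6 and 34.4 in batch 6, a log2 difference of 8.21 that rests on 49 counts in all in batches 1 and 3 and 15948 in batches 4 and 6. It was near the limit of detection in 1 pair and well expressed in the other. Myrf, the transcription factor that drives myelin genes, stood at 15.5 and 22.8 CPM in batch 1, 12.7 and 18.5 in batch 3, 329 and 398 in batch 4 and 175 and 157 in batch 6, a difference of 3.95. Fa2h, which hydroxylates the fatty acids of myelin galactolipids, lay at 2.73 to 4.82 CPM in batches 1 and 3 and 42.7 to 97.97 CPM in batches 4 and 6. Neu4, a sialidase, lay at 1.24 to 19.4 CPM in batches 1 and 3 and 65.4 to 155 CPM in batches 4 and 6. In each of these genes the 2 pairs did not overlap, and in batches 4 and 6 both libraries of batch 4 stood above both of batch 6.

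**Figure D1:**
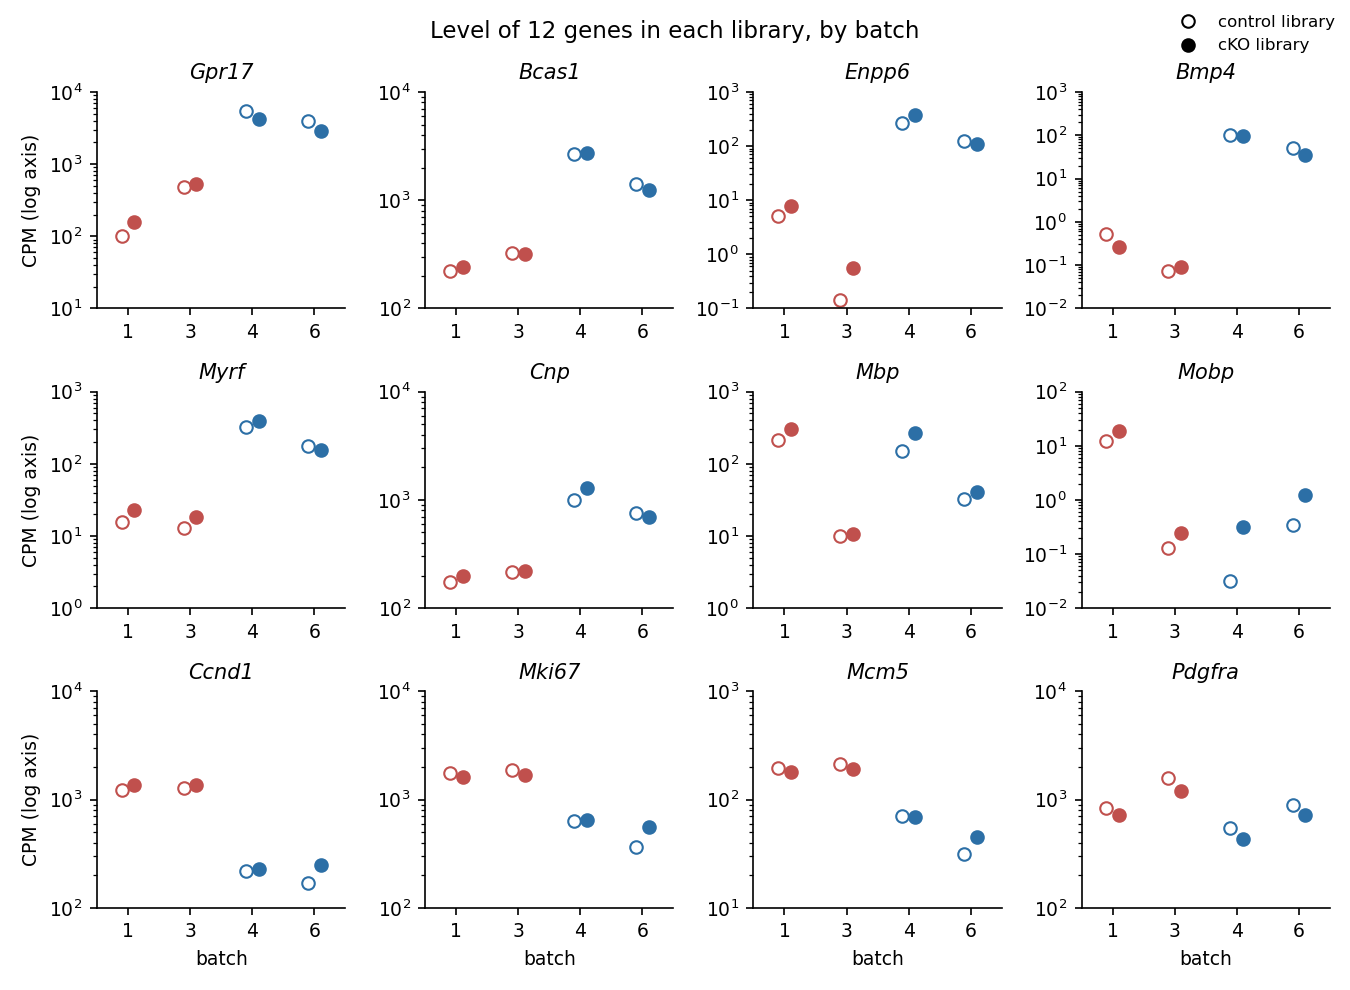
Level of 12 genes in CPM (log axis) in each of the 8 libraries, by batch on the horizontal axis, with open circles for control and filled circles for cKO libraries, red for batches 1 and 3 and blue for batches 4 and 6. Gpr17, Bcas1, Enpp6, Bmp4, Myrf and Cnp are higher in all 4 libraries of batches 4 and 6, Ccnd1, Mki67 and Mcm5 are lower there, and Mbp, Mobp and Pdgfra overlap.

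Of 25 premyelinating genes listed, 23 passed the filter on low counts, and 17 of the 23 were non-overlapping and higher in batches 4 and 6 (16 of them at least 2-fold), against 1 that was higher in batches 1 and 3. The shares of all genes were 16.9% (3.29% at least 2-fold) and 17.2%. The median log2 difference of the 23 was 1.97. Cyfip2, an actin regulator, lay at 179 to 286 CPM in batches 1 and 3 and 668 to 1239.9 CPM in batches 4 and 6. Sirt2, a tubulin deacetylase, lay at 112 to 127 CPM in batches 1 and 3 and 433 to 983 CPM in batches 4 and 6. Itpr2, a calcium release channel, lay at 112 to 123 CPM in batches 1 and 3 and 369.6 to 606 CPM in batches 4 and 6. Each was more than 2-fold higher across the gap between the pairs. Tcf7l2, a Wnt effector of the differentiating stage, lay at 27.2 to 37.7 CPM in batches 1 and 3 and 59.2 to 95.3 CPM in batches 4 and 6. The member that went the other way was Arpc1b, a subunit of the actin-branching complex, at 40.8 to 48.5 CPM in batches 1 and 3 and 16.6 to 29.3 CPM in batches 4 and 6. The list was highest in batch 4: in 19 of the 23 genes both libraries of batch 4 stood above both of batch 6, against 26.1% of all genes, whereas batches 1 and 3 were mixed, with batch 1 above batch 3 in 9 genes (24.2% of all genes) and batch 3 above batch 1 in 7 (31% of all genes). Whether the cultures held more premyelinating cells or more of this RNA per cell cannot be told apart in bulk libraries, here or in the groups that follow.

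The other genes chosen by size in this direction are not classical stage markers. Gng4, a G protein gamma subunit, lay at 0.229 to 0.469 CPM in batches 1 and 3 and 7.78 to 17.6 CPM in batches 4 and 6. Kcnj6, an inward rectifier potassium channel, lay at 0.0392 to 0.423 CPM in batches 1 and 3 and 1.84 to 7.95 CPM in batches 4 and 6, and Cbln2, a secreted synapse organiser, at 0.253 to 1.02 CPM in batches 1 and 3 and 9.47 to 34.4 CPM in batches 4 and 6. Zfp804a, Tmem88b, Col4a3 (a basement membrane collagen chain) and Rasgef1b (an exchange factor for Ras-family proteins) had differences of 4.70, 4.13, 3.92 and 3.84. The 4 genes were under 8 CPM in every library of batches 1 and 3.

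The later genes of the myelin sheath did not follow the pairs. Mbp stood at 217 and 306 CPM in batch 1, 10.1 and 10.8 in batch 3, 153 and 265 in batch 4 and 32.7 and 40.7 in batch 6, so batches 1 and 4 were high and batches 3 and 6 low. Mag, a myelin adhesion molecule, stood at 26.4 and 42.04 CPM in batch 1, 0.0723 and 0.156 in batch 3, 35.3 and 59.1 in batch 4 and 6.21 and 7.93 in batch 6, again high in batches 1 and 4 and lowest in batch 3. Mobp stood at 12.4 and 18.4 CPM in batch 1, 0.127 and 0.246 in batch 3, 0.0317 and 0.316 in batch 4 and 0.341 and 1.23 in batch 6. Mog stood at 2.41 and 4.21 CPM in batch 1, 0.0904 and 0.156 in batch 3, 0.397 and 2.43 in batch 4 and 0.265 and 0.307 in batch 6. Both were highest in batch 1. The pairs overlapped in all 4 of these genes, and the log2 differences of -0.17, 0.66, -4.21 and -1.24 average unlike batches.

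Some other genes on the myelin list did not overlap between the pairs, at shares near those of all genes when differences of any size count. Cnp, an enzyme made early in myelination, stood at 173 and 197 CPM in batch 1, 216 and 219 in batch 3, 989 and 1289.7 in batch 4 and 751 and 699 in batch 6, a difference of 2.21. Pllp, a tetraspan protein of myelin, lay at 14.2 to 22.04 CPM in batches 1 and 3 and 56.5 to 118 CPM in batches 4 and 6, and Gal3st1, which makes sulfatide, at 9.998 to 28.8 CPM in batches 1 and 3 and 32.998 to 69.8 CPM in batches 4 and 6. Of 38 genes on the myelin list 33 passed the filter, 7 were non-overlapping and higher in batches 4 and 6 (16.9% of all genes were), and 4 were higher in batches 1 and 3 (17.2% of all genes), among them the actin-binding Anln (also a cell division gene) at 77.3 to 84.5 CPM in batches 1 and 3 and 20.96 to 34.99 CPM in batches 4 and 6. With at least 2-fold required, 7 of the 33 were higher in batches 4 and 6 (3.29% of all genes). In batches 1 and 3, 2 of the 33 were (4.7% of all genes). Summed over the list, levels were 931 to 1468 CPM in batches 1 and 3 and 2027 to 3589 CPM in batches 4 and 6. The median was 0.16, and it was 1.29 when batch 1 was left out. The list also split batch 1 from batch 3, being higher in both libraries of batch 1 for 19 genes and in both of batch 3 for 5. The shares of all genes were 24.2% and 31%.

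Markers of the progenitor stage did not all share a direction, but more of them were higher in batches 4 and 6. Pdgfra, the receptor for PDGF-AA, stood at 844 and 729 CPM in batch 1, 1589 and 1206 in batch 3, 542 and 429 in batch 4 and 900.3 and 727 in batch 6, highest in batch 3 and lowest in batch 4, and the pairs overlapped. Cspg4, the NG2 proteoglycan, stood at 397 and 413 CPM in batch 1, 699.9 and 619 in batch 3, 252 and 254 in batch 4 and 317 and 312 in batch 6 and was non-overlapping, with a log2 difference of -0.91. Olig2 (difference -0.34) and Sox10 (difference 0.66), factors of the whole lineage, overlapped. Other genes on the list were higher in batches 4 and 6: the brain matrix proteoglycan Ncan lay at 1059 to 1399.7 CPM in batches 1 and 3 and 2866 to 3759 CPM in batches 4 and 6, Nkx2-2, a factor that rises as progenitors begin to differentiate, at 73.6 to 98.8 CPM in batches 1 and 3 and 192 to 340.3 CPM in batches 4 and 6, and C1ql1 at 8.67 to 29.8 CPM in batches 1 and 3 and 51.5 to 85.1 CPM in batches 4 and 6. Of 29 genes that passed (of 30 listed, 1 of them X-linked), 11 were higher in batches 4 and 6 (16.9% of all genes). In batches 1 and 3, 4 were higher (17.2% of all genes), and 14 overlapped, with a median of 0.22. At least 2-fold differences numbered 6 towards batches 4 and 6 (3.29% of all genes) and 0 towards batches 1 and 3 (4.7%). Without batch 6 the median was 0.04. All 8 libraries thus carried Pdgfra and Cspg4 at 252 CPM or more, and the pairs differed in which progenitor markers stood higher.

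Among 27 lineage transcription factors, 11 were non-overlapping and higher in batches 4 and 6 and 5 in batches 1 and 3. Over all genes the shares were 16.9% and 17.2%. After Myrf, the largest non-overlapping differences were those of Nkx2-2 (1.62), Sox8 (lying at 201 to 270.1 CPM in batches 1 and 3 and 606 to 781 CPM in batches 4 and 6), Tcf7l2 (1.29) and Zfp488 (1.24), which act in oligodendrocyte differentiation. Sox11 (-0.90) and Etv5 (-0.79), which are tied to the immature state, were higher in batches 1 and 3. St18 differed by 3.26, but it was at 0 to 1.23 CPM in batches 1 and 3 and overlapped with batch 6.

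**Figure D2:**
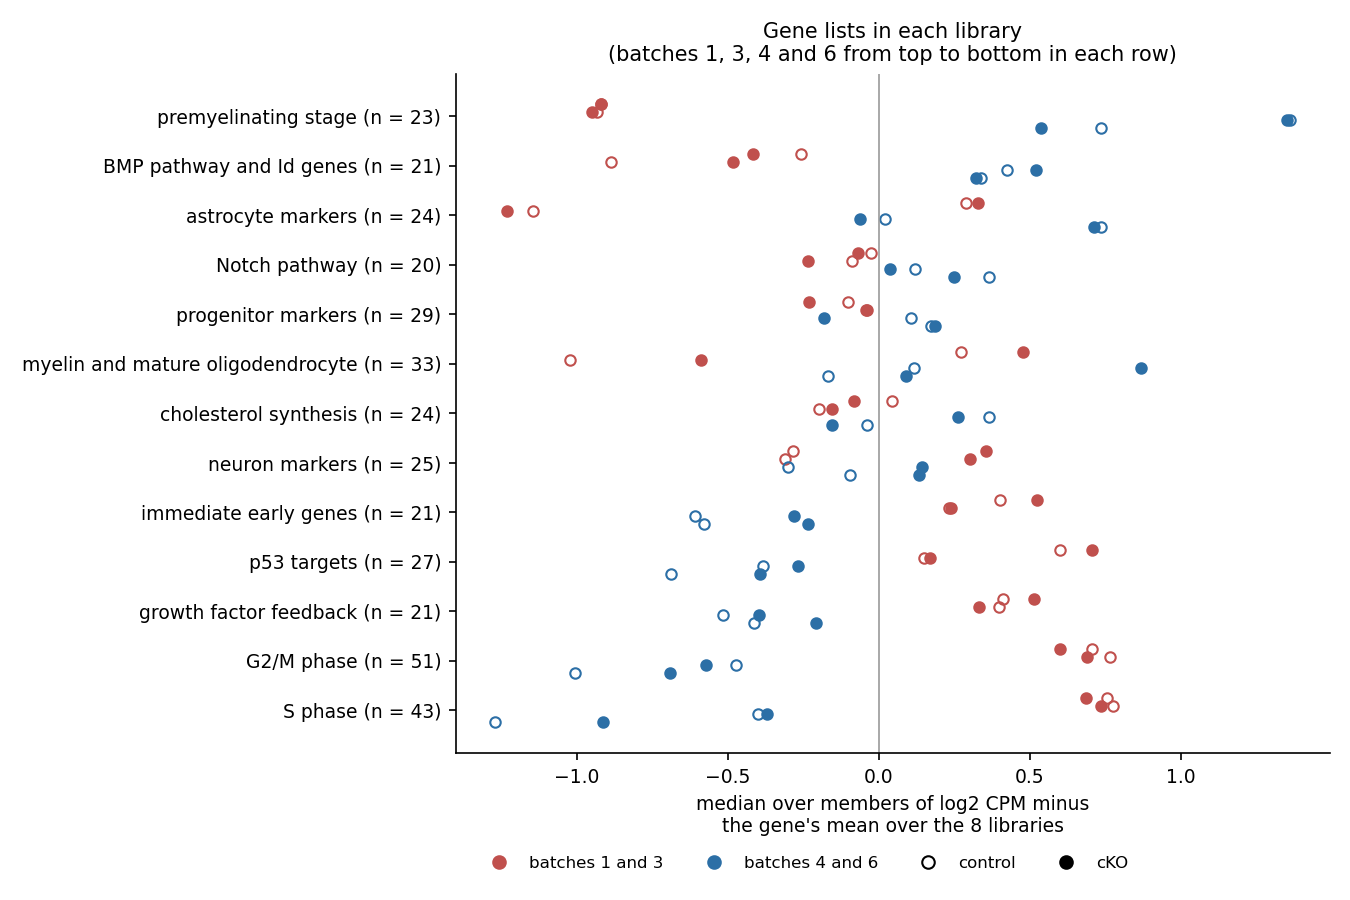
Median over the members of each gene list of log2 CPM minus the gene's mean over the 8 libraries (horizontal axis, log2 units), 1 point per library, with batches 1, 3, 4 and 6 from top to bottom in each row. Premyelinating and BMP genes lie to the right in blue batches, S phase and G2/M genes to the right in red batches, and astrocyte and myelin genes split batch 1 from batch 3.

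In batches 1 and 3 the cell cycle stood higher. All 43 listed S phase genes and all 51 listed G2/M genes passed the filter and were non-overlapping and higher in batches 1 and 3, beside 17.2% of all genes. At least 2-fold differences were found in 35 of the S phase and 45 of the G2/M genes, beside 4.7% of all genes. The medians were -1.45 and -1.39, that is 2.73-fold and 2.62-fold. Mcm5, a subunit of the replicative helicase, stood at 194 and 181 CPM in batch 1, 213 and 191 in batch 3, 70.5 and 69.4 in batch 4 and 31.2 and 45.3 in batch 6. Mki67, the proliferation antigen, stood at 1767 and 1617 CPM in batch 1, 1859.6 and 1675 in batch 3, 634 and 645 in batch 4 and 368 and 558 in batch 6. Every library of batches 1 and 3 was above every library of batches 4 and 6 in both genes, and the control library of batch 6 was the lowest of all.

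Other replication genes had like differences: Cdc6 (origin licensing) -1.98, Chaf1b (chromatin assembly) -1.95 and Pcna (the polymerase clamp) -1.31. In mitosis, Cenpe (a kinetochore motor) differed by -1.67, Top2a by -1.40 and Ccnb1 by -1.35. The smallest differences were those of Ubr7 (-0.40) and Cbx5 (-0.28). The cycle genes also separated batch 4 from batch 6: both libraries of batch 4 stood above both of batch 6 in 41 of the 43 S phase genes and 40 of the 51 G2/M genes. Over all genes that share was 26.1%. Batch 4 was thus above batch 6 both in premyelinating and in cell cycle genes, while across the pairs the 2 groups went in opposite directions.

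Promoters were read for the G2/M genes because all 51 members differed in 1 direction. The letters TTTGAA, the core of the cell cycle genes homology region, through which such genes are known to be repressed outside division, were searched on both strands in RefSeq promoters (GRCm38.p6, 250 bases before to 50 after the start). They occurred in 31 of the 44 G2/M promoters that could be matched (70.5%), and in 18.1% of all 27025 promoters of the table. CCAAT, the box that often lies next to it, occurred in 79.5% of the 44 and in 37.9% of all. A match of letters is a description and not a shown binding site. The promoters of the 3 genes with the largest differences among those with a match are printed with TTTGAA in capitals, for Mki67 (chr7:135716330-135716629, minus strand), Kif20b, a mitotic kinesin (chr19:34922108-34922407, plus strand), and Cdc20, an activator of the anaphase complex (chr4:118437294-118437593, minus strand).
Mki67: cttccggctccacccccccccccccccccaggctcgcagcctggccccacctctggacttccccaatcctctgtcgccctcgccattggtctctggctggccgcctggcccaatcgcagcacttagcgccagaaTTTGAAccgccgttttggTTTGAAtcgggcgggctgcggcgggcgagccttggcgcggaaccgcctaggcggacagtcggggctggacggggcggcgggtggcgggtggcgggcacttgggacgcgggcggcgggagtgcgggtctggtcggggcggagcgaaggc
Kif20b: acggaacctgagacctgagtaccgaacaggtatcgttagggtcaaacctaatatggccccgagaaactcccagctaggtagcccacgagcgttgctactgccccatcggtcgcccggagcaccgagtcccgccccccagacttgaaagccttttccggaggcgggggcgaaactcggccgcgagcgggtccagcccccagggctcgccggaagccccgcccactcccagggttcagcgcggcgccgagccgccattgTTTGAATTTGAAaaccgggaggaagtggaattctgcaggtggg
Cdc20: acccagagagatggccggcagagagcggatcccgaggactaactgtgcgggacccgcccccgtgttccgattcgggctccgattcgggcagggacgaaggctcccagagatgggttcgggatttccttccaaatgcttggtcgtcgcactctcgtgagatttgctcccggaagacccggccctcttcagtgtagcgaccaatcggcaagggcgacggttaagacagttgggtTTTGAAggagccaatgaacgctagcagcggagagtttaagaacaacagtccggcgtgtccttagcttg

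Genes that read out growth factor signalling were higher in batches 1 and 3 as well. Cyclin D1, encoded by Ccnd1 (mm10 chr7:144929931-144939925, minus strand), stood at 1239 and 1367 CPM in batch 1, 1281 and 1376 in batch 3, 220.1 and 227 in batch 4 and 170.3 and 250.2 in batch 6, a log2 difference of -2.61 or 6.09-fold, with every library of batches 1 and 3 at 1239 CPM or more and every library of batches 4 and 6 at 250.2 CPM or less. Spry4, a feedback inhibitor of receptor tyrosine kinases, stood at 192 and 207 CPM in batch 1, 221 and 215 in batch 3, 53.3 and 68.7 in batch 4 and 49.3 and 71.5 in batch 6. Egr1 stood at 107 and 125 CPM in batch 1, 53.1 and 74.6 in batch 3, 15.4 and 22.2 in batch 4 and 24.9 and 55.04 in batch 6, and here the cKO library of batch 6 overlapped with batch 3. Dusp6, a phosphatase for ERK kinases, lay at 121 to 172 CPM in batches 1 and 3 and 56.6 to 84.5 CPM in batches 4 and 6. Of 22 listed genes 21 passed, 14 were non-overlapping and higher in batches 1 and 3 and 1, Etv1, in batches 4 and 6, with a median of -0.90. Over all genes the shares were 17.2% and 16.9%. Spry1, Spry2, Spred2, Spred3, Etv4, Etv5 and Dusp4 were among the 14. Spred1 (0.09), Myc (0.11) and Ccnd2 (0.22) overlapped, so the D-type cyclins did not share a pattern.

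Immediate early genes pointed the same way in part: 9 of 21 were non-overlapping and higher in batches 1 and 3 and 1, Nr4a3 (1.21), in batches 4 and 6. The shares of all genes were 17.2% and 16.9%. Egr2 lay at 3.16 to 5.65 CPM in batches 1 and 3 and 0.303 to 0.811 CPM in batches 4 and 6, Egr3 at 1.59 to 4.69 CPM in batches 1 and 3 and 0.0791 to 0.1704 CPM in batches 4 and 6 and Arc, a synaptic and activity-induced gene, at 9.35 to 19.8 CPM in batches 1 and 3 and 0.757 to 4.43 CPM in batches 4 and 6. Fos, at 7.93 to 12.6 CPM in batches 1 and 3 and 4.01 to 8.103 CPM in batches 4 and 6, overlapped.

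Inhibitors of the cell cycle split by gene. Cdkn1a, the p21 inhibitor and a target of both p53 and growth signals, stood at 249 and 285 CPM in batch 1, 169 and 169.9 in batch 3, 59.05 and 82.6 in batch 4 and 47.1 and 72.8 in batch 6, higher in batches 1 and 3. Cdkn1c, the p57 inhibitor, stood at 5.71 and 3.52 CPM in batch 1, 4.61 and 4.49 in batch 3, 26.1 and 17.2 in batch 4 and 26.2 and 15.01 in batch 6, higher in batches 4 and 6. Cdkn1b, the p27 inhibitor, lay at 86.1 to 103 CPM in batches 1 and 3 and 91.6 to 109 CPM in batches 4 and 6 and overlapped. Of 27 p53 targets, 16 were non-overlapping and all 16 were higher in batches 1 and 3 (17.2% of all genes), with a median of -0.84. Plk2 (-1.63), Pmaip1 (-1.45) and Aen (-1.15) were among them. Psrc1 and Gtse1 are on both the p53 and the G2/M list, and Mdm2, the feedback regulator of p53, differed by -0.38.

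**Figure D3:**
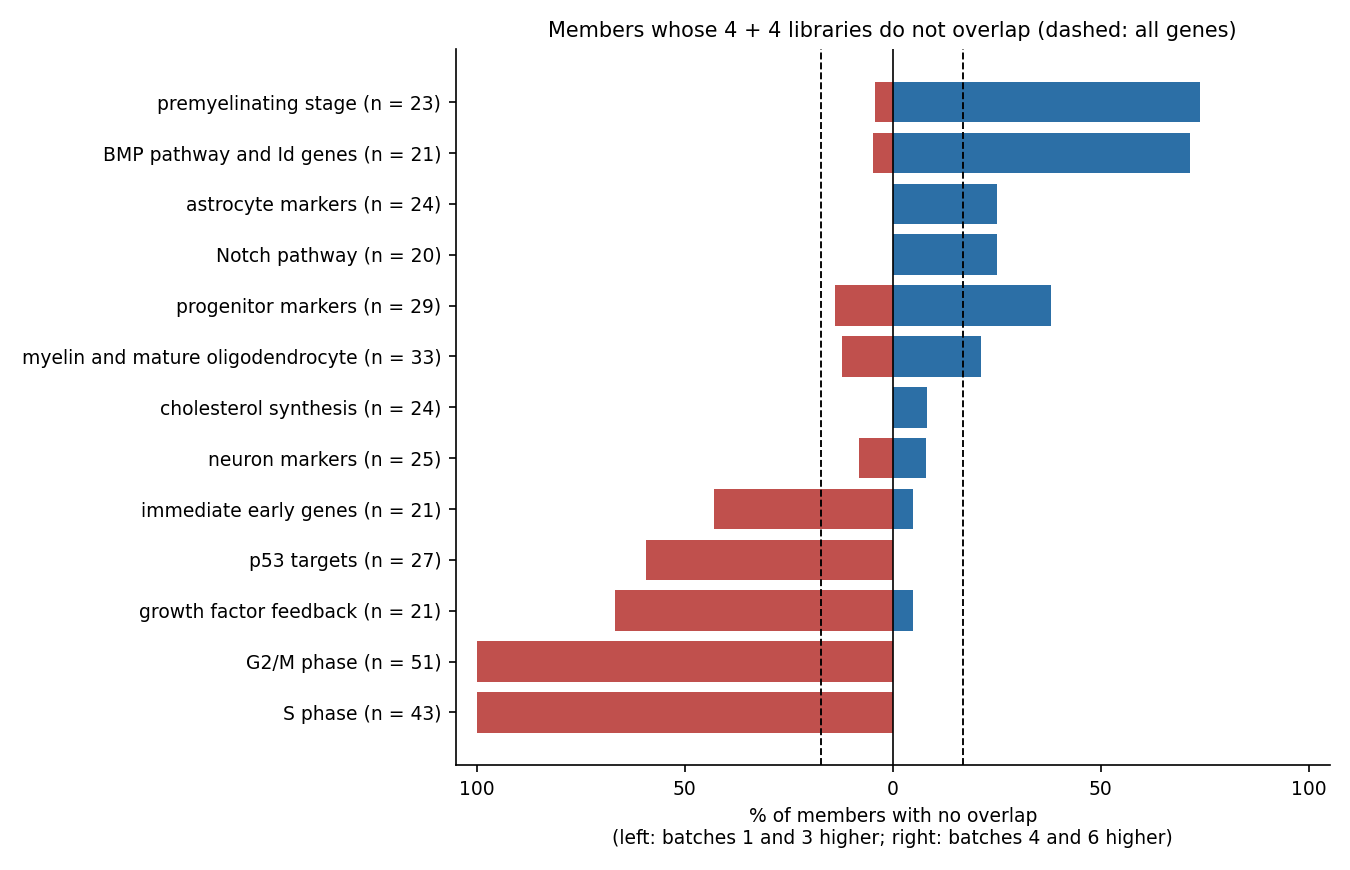
Share of the members of each gene list (percent, horizontal axis) whose 4 libraries in one batch pair do not overlap with the 4 in the other, to the left for members higher in batches 1 and 3 and to the right for members higher in batches 4 and 6; dashed lines give the same shares over all 17429 genes (17.2% and 16.9%). S phase and G2/M reach 100% on the left, and 17 of 23 premyelinating and 15 of 21 BMP genes lie on the right.

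BMP signalling genes were higher in batches 4 and 6. Id1 stood at 10.1 and 9.902 CPM in batch 1, 6.66 and 5.76 in batch 3, 49.8 and 44.8 in batch 4 and 40.9 and 37.6 in batch 6. Id3 stood at 21.9 and 21.3 CPM in batch 1, 25.99 and 20.8 in batch 3, 144 and 107 in batch 4 and 141 and 106 in batch 6. Id4 stood at 8.55 and 6.84 CPM in batch 1, 3.07 and 2.75 in batch 3, 48.2 and 35.7 in batch 4 and 54.3 and 37.7 in batch 6. The 3 genes were several-fold higher in every library of batches 4 and 6, and unlike Bmp4 they differed little between batches 4 and 6. Smad6, an inhibitory SMAD induced by BMP, lay at 0.0893 to 0.255 CPM in batches 1 and 3 and 1.001 to 2.17 CPM in batches 4 and 6, and Nog, which binds and blocks BMP ligands, at 0.581 to 1.45 CPM in batches 1 and 3 and 3.95 to 8.82 CPM in batches 4 and 6. Of the receptors, Bmpr1b differed by 1.66, Bmpr1a by 0.55 and Bmpr2 by 0.40.

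Of 24 listed BMP genes 21 passed, and 15 were non-overlapping and higher in batches 4 and 6 (16.9% of all genes). In batches 1 and 3, 1 was higher (17.2% of all genes). That one was the ligand Bmp7, at 114 to 135 CPM in batches 1 and 3 and 33.9 to 48.04 CPM in batches 4 and 6, so Bmp4 and Bmp7 ran in opposite directions. Bmp4 is also on the premyelinating list, and the median of the BMP list was 0.81.

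**Figure D4:**
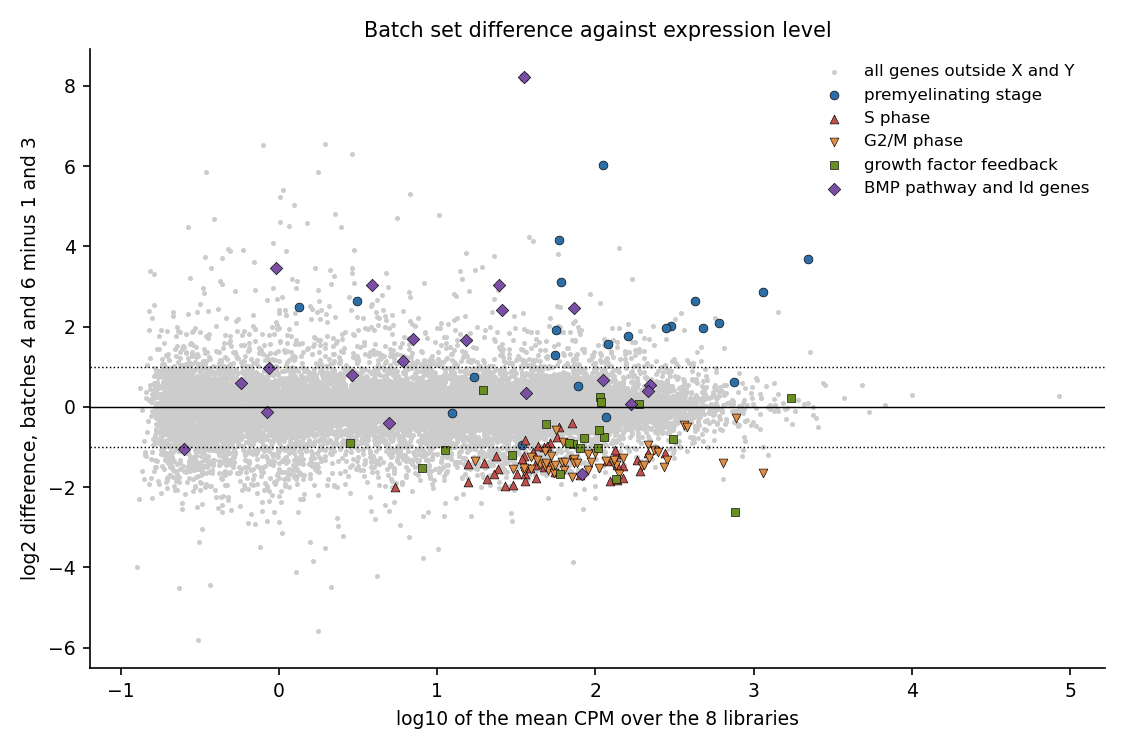
Log2 difference (batches 4 and 6 minus 1 and 3, vertical axis) against log10 of the mean CPM over the 8 libraries for all 17429 genes (grey) and for members of 5 lists (coloured); dotted lines mark 2-fold. S phase and G2/M genes lie in a band below 0 at all levels, and the premyelinating genes spread upwards to Bmp4 at 8.21.

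Astrocyte markers followed single batches more than the pairs. Aqp4, the astrocyte water channel, stood at 39.5 and 49.6 CPM in batch 1, 2.15 and 3.95 in batch 3, 48.8 and 97.9 in batch 4 and 99.98 and 138 in batch 6. Gfap, the astrocyte filament, stood at 1.196 and 3.03 CPM in batch 1, 0.235 and 0.268 in batch 3, 1.79 and 4.01 in batch 4 and 9.504 and 13.3 in batch 6. Both were lowest in batch 3 and highest in batch 6. Apoe stood at 309 and 358 CPM in batch 1, 24.4 and 32.9 in batch 3, 143 and 149.8 in batch 4 and 694 and 508 in batch 6. Of 24 genes that passed (of 25 listed), 6 were non-overlapping, all higher in batches 4 and 6 (16.9% of all genes). At least 2-fold differences numbered 5 towards batches 4 and 6 (3.29% of all genes) and 0 towards batches 1 and 3 (4.7%). Among the 6 were S100b, which premyelinating cells can also make, and Id3, which the BMP list shares. S100b lay at 12.7 to 24.9 CPM in batches 1 and 3 and 57.6 to 150.5 CPM in batches 4 and 6. In 20 of the 24 both libraries of batch 6 stood above both of batch 4 (27% of all genes), and in 20 both of batch 1 stood above both of batch 3 (24.2% of all genes). The median was 0.66, and 1.85 without batch 1. Summed over the list, levels were 4236 to 6800 CPM in batches 1 and 3 and 6693 to 10817 CPM in batches 4 and 6. Premyelinating genes were higher in batch 4 than in batch 6 and astrocyte markers the reverse. The part of other cells in the difference between the pairs was not tested.

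Markers of cells from outside the neural lineage were low, and their summed levels are given first for batches 1 and 3 and then for batches 4 and 6. Of the 10 microglia and macrophage genes counted here, 4 passed the filter, and the list summed to 15.4 to 20.8 CPM and 15.5 to 18.6 CPM. The microglial genes Aif1, Cx3cr1 and C1qa, the endothelial Cldn5 and the fibroblast gene Dcn were not analysed here. Pecam1, an endothelial adhesion molecule, was at 0.18 to 0.38 CPM and Col1a1, a fibroblast collagen, at 0.09 to 0.67 CPM. Endothelial markers summed to 7.78 to 12.2 CPM and 11.5 to 19.9 CPM, and fibroblast markers to 118 to 186 CPM and 135 to 159.7 CPM. Mural markers summed to 21.4 to 79.0 CPM and 73.7 to 123.9 CPM. Both libraries of batch 1 stood above both of batch 3 in 15 of 17 fibroblast and 5 of 6 mural genes. Over all genes that share was 24.2%, and 0 genes of either list went the other way. Neuron markers, some of which progenitors also express, summed to 1454 to 2003 CPM and 1590.3 to 2034 CPM, and Tubb3, a neuronal tubulin, lay at 13.2 to 23.3 CPM in batches 1 and 3 and 26.2 to 50.5 CPM in batches 4 and 6. Genes of forebrain position had a median of 0.07 and those of midbrain, hindbrain and cord position one of -0.09.

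Notch pathway genes had a median of 0.29, with 5 of 20 non-overlapping, all 5 higher in batches 4 and 6 (16.9% of all genes). Hes5, a Notch target, stood at 16.6 and 10.7 CPM in batch 1, 19.2 and 16.3 in batch 3, 56.8 and 42.8 in batch 4 and 76.96 and 57.7 in batch 6, and Hey1, another target, lay at 17.7 to 26.8 CPM in batches 1 and 3 and 57.9 to 76.01 CPM in batches 4 and 6. Dll3 (1.15), Hey2 (1.17) and Rbpj (0.27) were the others. Hes1 (-0.46) and the receptor Notch1 (0.11) overlapped.

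The largest differences towards batches 1 and 3 outside these groups were in adhesion, matrix and signalling genes. Itga8, an integrin subunit, stood at 114 and 156 CPM in batch 1, 98.3 and 174 in batch 3, 6.49 and 12.97 in batch 4 and 6.17 and 13.3 in batch 6, a log2 difference of -3.85. Col19a1, a collagen chain, lay at 11.1 to 20.04 CPM in batches 1 and 3 and 0.492 to 1.68 CPM in batches 4 and 6, Clic5, a chloride channel protein tied to the actin cytoskeleton, at 14.98 to 20.8 CPM in batches 1 and 3 and 1.25 to 1.79 CPM in batches 4 and 6, and Pnlip, a lipase, at 40.8 to 66.96 CPM in batches 1 and 3 and 6.21 to 8.17 CPM in batches 4 and 6. Hmcn1, an extracellular matrix protein, differed by -2.71, Pde8a, a cyclic AMP phosphodiesterase, by -2.71, Ckmt1, the mitochondrial creatine kinase, by -2.65, Hydin, a protein of motile cilia, by -2.79, Pak6, a kinase, by -2.95 and Klhdc7a by -2.94. With the exception of Pak6, these genes were also higher in the cKO than in the control library of each batch. Across autosomes the share of genes with a non-overlapping 2-fold difference ran from 5.88% on chromosome 3 to 10.1% on chromosome 1, so no autosome carried the difference alone.

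The strand setting of the counting is unknown here, so some values may hold reads of a partner gene on the other strand. This touches, among others, Gpr17 and Lims2, which overlap each other and are both on the premyelinating list. It also touches Bcas1 (Bcas1os1, Bcas1os2), Bmp4 (Gm15217, Gm15222), Cnp (Dnajc7), Ccnd1 (LTO1), Mki67 (Gm45240), Itga8 (E030013I19Rik) and Id4 (A330033J07Rik, Gm49291). Aqp4 (Gm50048) and Adamts9 (9530026P05Rik, A730049H05Rik, Gm15737) have such partners too.

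The effect of the knockout was then tested inside each pair, with edgeR's quasi-likelihood test, the batch as a block and Benjamini-Hochberg adjustment over the 17429 genes. In batches 1 and 3, 1203 genes (6.9%) rose and 1244 (7.14%) fell in cKO at an adjusted p under 0.05. In batches 4 and 6, 1026 (5.89%) rose and 1003 (5.75%) fell. DESeq2 with the same block called 564 up and 518 down in batches 1 and 3 and 539 up and 526 down in batches 4 and 6. These counts rest on 2 batches each: without batch 3 they were 347 and 168 in batch 1, without batch 1 they were 618 and 543 in batch 3, without batch 4 they were 637 and 434 in batch 6, and without batch 6 they were 565 and 461 in batch 4. The labels do not say that batches came from separate animals, and if they did not, the p-values measure only the spread between these samples, which may be technical. Genes called in both numbered 1123, or 45.9% of those called in batches 1 and 3 and 55.3% of those called in batches 4 and 6, and 1117 of the 1123 went the same way. Over all genes, which are not independent replicates, the 2 effects correlated at a Pearson r of 0.57 and a Spearman rho of 0.47. Ehmt1 fell by 1.28 (SE 0.046) in batches 1 and 3 and by 1.13 (SE 0.046) in batches 4 and 6 on the log2 scale, and Ehmt2 by 1.63 (SE 0.045) and 1.57 (SE 0.045). The difference between pairs had an adjusted p of 0.517 for Ehmt1 and 0.863 for Ehmt2 (edgeR), so a difference in the loss of either transcript was not shown.

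The test of the difference itself, the interaction of virus and batch pair, called 64 genes. In 19 (0.109%) the signed log2 effect of the knockout was greater in batches 4 and 6 and in 45 (0.258%) it was smaller. Greater and smaller give the sign of the difference, not the strength of the response. Wdr1, among the 45, had 0.04 in batches 1 and 3 and -0.36 in batches 4 and 6. Mmp15, among the 19, had -0.46 and -0.08. At an unadjusted p under 0.05 it passed for 1616 genes (9.27%). Single batches weighed on the counts, which were 2 and 8 without batch 3, 115 and 60 without batch 4 and 36 and 41 without batch 6. Without the batch as a block they were 0 and 0 (68 and 64 at an unadjusted p under 0.05), while with the block DESeq2 called 19 and 37, limma-voom 11 and 23, and edgeR without a filter on low counts 68 and 153. Of the 45 genes with a smaller effect 41 had a higher level in batches 4 and 6 by any amount, but 19 by the non-overlapping 2-fold rule. Of the 19 with a greater effect 13 had a higher level in batches 1 and 3 by any amount and 6 by that rule.

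Neu4 (mm10 chr1:94020451-94028334, plus strand) had the lowest p. From control to cKO it went from 1.24 to 6.94 CPM in batch 1 and from 4.03 to 19.4 CPM in batch 3, but from 140.4 to 155 CPM in batch 4 and from 65.4 to 78.7 CPM in batch 6. The log2 effect was 2.33 (SE 0.090) in batches 1 and 3 and 0.20 (SE 0.051) in batches 4 and 6, and the difference of -2.13 had an adjusted p of 1.71e-06 (edgeR, 2 batches per pair). Its cKO level in batches 1 and 3 stayed below every library of batches 4 and 6. Chgb, a secretory granule protein, rose by 1.88 (SE 0.11) and by 0.59 (SE 0.076), a difference of -1.30 with an adjusted p of 0.00238 (edgeR). Tnr, the matrix protein tenascin-R, rose by 0.65 in batches 1 and 3 and had an effect of 0.09 in batches 4 and 6 (adjusted p of the difference 0.00345, edgeR). Without the batch as a block none of the 12 genes named for this difference passed, and leaving out batch 3 ended the call of Adamts9, Cldn11, Epb41l3, Grm5, Rtkn2, Septin5 and Vldlr. Leaving out batch 1 ended that of Cldn11, Fndc1, Rtkn2 and Vldlr, and leaving out batch 4 that of Cldn11.

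Some genes changed in opposite directions. Col11a1, a fibrillar collagen chain, stood at 83.2 and 120.03 CPM in batch 1, 87.3 and 126 in batch 3, 340.1 and 263 in batch 4 and 223 and 188 in batch 6, so cKO was higher in batches 1 and 3 and lower in batches 4 and 6. Its effects were 0.53 (SE 0.044) and -0.31 (SE 0.042), each past the threshold, and their difference had an adjusted p of 7.93e-05 (edgeR). Epb41l3, a membrane skeleton protein, rose by 0.14 and fell by 0.41, and Adamts9, a matrix protease, fell by 0.19 and rose by 0.50. Their differences of -0.55 and 0.70 had adjusted p values of 0.00318 and 0.00482 (edgeR). Septin5, a cytoskeletal GTPase, also had a negative difference. It fell by 0.38 in batches 4 and 6, and its effect in batches 1 and 3 was 0.10, short of the threshold.

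Among genes with a greater effect in batches 4 and 6, Cldn11, the tight junction protein of myelin, rose by 0.59 (SE 0.053) in batches 1 and 3 and by 1.12 (SE 0.054) in batches 4 and 6, with an adjusted p of 0.0119 for the difference (edgeR). Fndc1 and Vldlr, a lipoprotein receptor, rose in batches 4 and 6 by 0.80 and 0.45, and their effects in batches 1 and 3 were 0.14 and 0.04. Grm5, a glutamate receptor, and Rtkn2 had -0.13 and -0.19 in batches 1 and 3 and rose by 0.28 and 0.47 in batches 4 and 6.

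**Figure D5:**
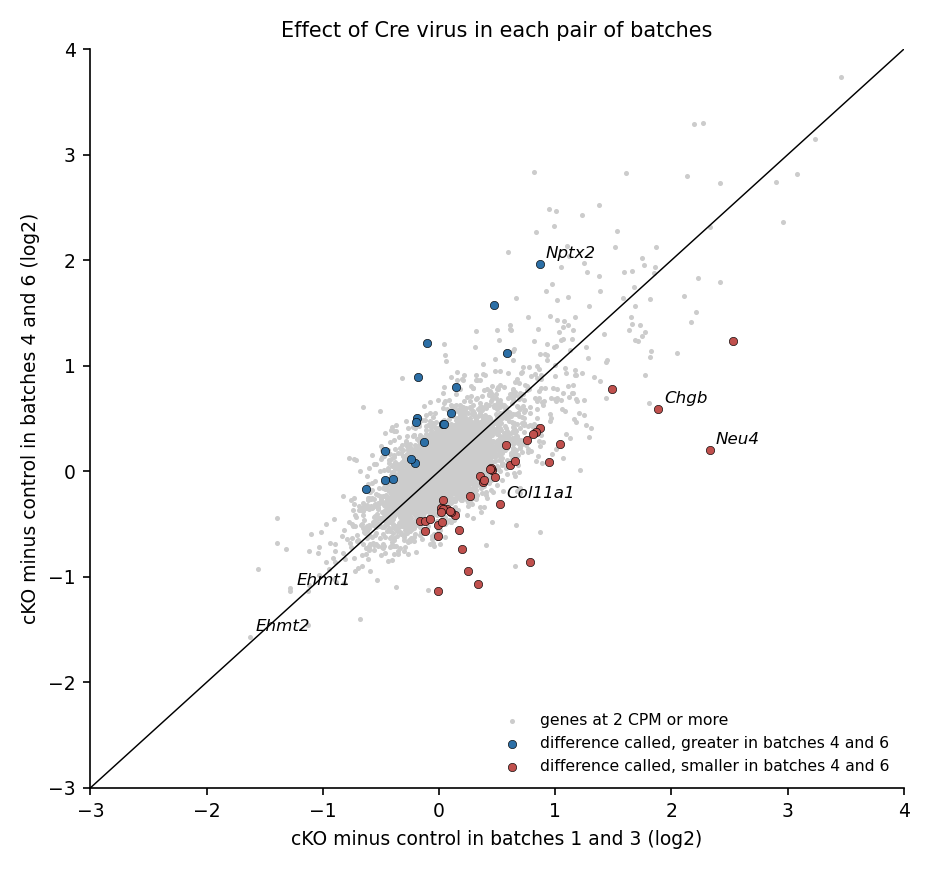
Log2 effect of the knockout (cKO minus control) in batches 4 and 6 (vertical axis) against that in batches 1 and 3 (horizontal axis) for 12604 genes with a mean of at least 2 CPM, 2 of which lie outside the axes, with 62 called differences coloured and the diagonal of equal effects drawn. Ehmt1 and Ehmt2 lie near the diagonal, and Neu4 (2.33 and 0.20) and Chgb (1.88 and 0.59) lie well below it.

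The groups that set the pairs apart were followed in the same test. Of the 33 myelin genes that passed, 12 rose in batches 1 and 3 (6.9% of all genes). In batches 4 and 6, 13 rose and 1 fell (5.89% and 5.75% of all genes). The median effects were 0.32 and 0.31, beside -0.01 and -0.00 over all genes. In the premyelinating list 4 rose and 3 fell in batches 1 and 3, 1 rose and 5 fell in batches 4 and 6, beside 6.9%, 7.14%, 5.89% and 5.75% of all genes, and the difference was called for Neu4 by edgeR and limma-voom and for Neu4 and Cyfip2 by DESeq2. Gpr17 had an effect of 0.36 (SE 0.15) in batches 1 and 3 and -0.38 (SE 0.14) in batches 4 and 6, and its difference of -0.75 did not pass (adjusted p = 0.444, edgeR). Of the 43 S phase genes edgeR called 2 down in batches 1 and 3 (7.14% of all genes) and 7 up in batches 4 and 6 (5.89%). DESeq2 called 0 and 3 of them, and limma-voom 3 and 4. The median effects were -0.04 and 0.22. The difference was called for 0 of the 43 by edgeR, DESeq2 and limma-voom alike. At an unadjusted edgeR p under 0.05 it passed for 11 (9.27% of all genes), all 11 greater in batches 4 and 6. Of the 51 G2/M genes edgeR called 4 down in batches 1 and 3 and 1 up in batches 4 and 6. The shares of all genes were 7.14% and 5.89%, and the difference was called for 0 of the 51. In growth factor feedback genes 1 rose and 6 fell in batches 1 and 3 and 7 rose and 3 fell in batches 4 and 6. The shares of all genes were 6.9%, 7.14%, 5.89% and 5.75%. The difference was called for 1 of 21, Spry4, by edgeR and DESeq2 and for 0 by limma-voom. Among p53 targets it was called for 1 of 27, Cdkn1a, by edgeR and DESeq2 and for 0 by limma-voom. Cdkn1a stood at 285 CPM in cKO and 249 CPM in control in batch 1 and at 169.9 and 168.8 CPM in batch 3. In batch 4 it stood at 82.6 and 59.0 CPM and in batch 6 at 72.8 and 47.1 CPM. Its effect was 0.10 in batches 1 and 3 (adjusted p = 0.22, edgeR) and 0.56 in batches 4 and 6 (adjusted p = 8.48e-05, edgeR). In BMP genes edgeR called 1 of 21 up and 2 down in batches 4 and 6, near the shares of all genes. In batches 1 and 3 it called 0 of 21, with 2 up and 4 down at an unadjusted p under 0.05, and DESeq2 and limma-voom also called 0. Neither Bmp4 (effects -0.73, SE 0.83, and -0.31, SE 0.13) nor Enpp6 (0.68 and 0.15) passed in either pair. The median effect of the knockout on the premyelinating list was 0.03 in batches 1 and 3 and -0.14 in batches 4 and 6, beside a median difference between the pairs of 1.97.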

How the data were processed

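Libraries of poly(A) RNA were made from TRIzol and RNeasy extracts with the KAPA mRNA Hyperprep kit, per the labels' protocols. The authors deposited 1 table of estimated counts per gene, of which 52% of values are not whole. The submitters' processing notes name Partek, cutadapt, STAR, DESeq2 and mm10. No label or header states versions, annotation or the strand setting.

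Counts were rounded, filtered with filterByExpr (minimum count 10), scaled by TMM and fitted with edgeR 4.0.16 in R 4.3.3. Depth was 43542742 to 65374488 counts per library. CPM are TMM-scaled, and log2 CPM carry a prior count of 2. The difference between batch pairs is the coefficient in a fit with the virus as covariate. Genes on X and Y were left out after the fit. The knockout effect was fitted per pair with the batch as a block, 2-sided, with Benjamini-Hochberg adjustment over 17429 genes. Control and cKO libraries of a batch deviated together (correlations 0.751 to 0.793, against at most 0.395 between batches), and the batch number comes from the labels.

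Named are Ehmt1 and Ehmt2, per direction the 12 protein-coding genes with the largest non-overlapping difference at a mean of at least 2 CPM, up to 4 members of each of 31 gene lists, fixed anchor genes, and per direction the 6 genes with the lowest p for the difference of the effect. Other members are named to fill out their list and were chosen after their values were seen. The batch pairs, members and lists were chosen with earlier results of these data known. Of the listed genes, 73 were not matched in the table. Alternatives used RLE or upper-quartile scaling, other filters, DESeq2 1.42.0, limma-voom (limma 3.58.1), control or cKO libraries alone, and each batch left out. The fits were tested on simulated data.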

Additional observations from a re-analysis of the deposited data

Results flagged for a closer look

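The effect of the knockout differed between the batch pairs by the interaction test for the 12 genes named for it (edgeR, 2 batches per pair). The log2 difference, batches 4 and 6 minus batches 1 and 3, was -2.13 for Neu4, -1.30 for Chgb, -0.84 for Col11a1, -0.56 for Tnr, -0.55 for Epb41l3 and -0.49 for Septin5. It was 0.70 for Adamts9, 0.66 for Fndc1, 0.66 for Rtkn2, 0.53 for Cldn11, 0.41 for Grm5 and 0.41 for Vldlr. Each of the 12 had the same sign under every alternative tried.

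In 2 of 328 groups of 4 libraries 1 library stood far from the other 3. The usual chance rate of about 1 in 20 does not apply. Each group holds 2 libraries of each batch pair, and many of the genes were named for a difference between the pairs. Both were the control library of batch 4. Stmn2, a neuronal tubulin regulator, was at 0.016 CPM there and at 0.16 to 0.22 CPM in the other controls. Vldlr was at 89.7 CPM there and at 56.9 to 60.4 CPM in the other controls.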

How the results depend on the processing

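With the batch left out as a block (no replicate block), edgeR called 0 genes up and 1 down in batches 1 and 3 (571 and 289 at an unadjusted p under 0.05), 0 up and 1 down in batches 4 and 6 (524 and 288), and 0 and 0 for the difference of the effect. DESeq2 called 564 up and 518 down in batches 1 and 3 and 539 up and 526 down in batches 4 and 6, while for the difference of the effect limma-voom called 11 and 23 and edgeR without a filter on low counts called 68 and 153. At a threshold of 1.5-fold, 1245 genes were higher in batches 4 and 6 and 1466 in batches 1 and 3. Leaving out each batch in turn gave 635 to 1122 and 863 to 1132 genes at 2-fold, 347 to 1398 up and 168 to 1538 down in batches 1 and 3, 565 to 1054 up and 434 to 1043 down in batches 4 and 6, and 2 to 115 greater and 8 to 60 smaller for the difference. A pair left with 1 batch was assumed to vary like the other. For the 2-fold counts, leaving out a batch also means that fewer libraries have to lie apart, so the rule is easier to pass. The cause of these shifts was not tested.

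Values of named genes between the pairs were counted once per gene and alternative. Of these, 1731 moved by less than the spread between the batches inside a pair and 150 moved further. Genes with a non-overlapping 2-fold difference reversed in 0 cases. Of the list medians 318 stayed, 53 moved and 1 reversed, that of microglia genes, which was -1.10 and became 0.0626 with a minimum of 1 CPM in 4 libraries. The S phase median was -1.88, the G2/M median -1.59 and the premyelinating median 1.54 without batch 4, and the p53 median was -1.16 without batch 3. With 2 batches a side, the smallest exact p for any single value between the pairs is 0.333.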

Other observations

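Genes of reactive glia were lower in batches 4 and 6 in part: 5 of 14 were non-overlapping, all 5 higher in batches 1 and 3. Beside this count and those below, 17.2% of all genes were higher in batches 1 and 3 and 16.9% in batches 4 and 6. The median of the list was -1.08, or -0.16 without batch 1. Vim, an intermediate filament, lay at 1536 to 1994 CPM in batches 1 and 3 and 566 to 924 CPM in batches 4 and 6, and S100a10, a calcium-binding protein, at 32.9 to 42.2 CPM in batches 1 and 3 and 8.62 to 12.2 CPM in batches 4 and 6. Genes known from Schwann cells and neural crest included Pou3f1, a POU factor that progenitors also use, at 101 to 149 CPM in batches 1 and 3 and 22.97 to 33.4 CPM in batches 4 and 6, and had 5 of 10 members higher in batches 1 and 3 and 2 higher in batches 4 and 6. In the integrated stress response, Trib3 differed by -1.64, Mthfd2 by -1.18 and Chac1 by -1.04, whereas the chaperones Hspa5 (0.24) and Calr (0.38) had positive values, and 12 of 30 genes were higher in batches 1 and 3 and 6 in batches 4 and 6. Hypoxia and glycolysis genes were mixed, with 9 of 30 higher in batches 1 and 3, 6 in batches 4 and 6 and a median of -0.06.

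Cholesterol synthesis separated batch 4 from batch 6 rather than the pairs. In 22 of its 24 genes both libraries of batch 4 stood above both of batch 6 (26.1% of all genes). Between the pairs 2 of the 24 were non-overlapping, higher in batches 4 and 6 (16.9% of all genes). Hmgcs1, an early enzyme of the pathway, lay at 880.5 to 1145 CPM in batches 1 and 3 and 1229 to 1589 CPM in batches 4 and 6. Among targets of TGF-beta and YAP, 5 of 17 were higher in batches 4 and 6 and 2 in batches 1 and 3, beside 16.9% and 17.2% of all genes. The median was 0.24, or 0.96 without batch 1. Interferon response genes had a median of -0.41 (-0.12 without batch 1). Of 28, 4 were higher in batches 1 and 3, near the 17.2% of all genes, and 1 in batches 4 and 6 (16.9% of all genes).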
